A study of Mus musculus with 40 samples.

Results

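Interferon-stimulated genes are the genes that cells switch on after interferon binds its receptors, and a list of 37 of them was followed here across 5 mouse tissues. Members were found by gene name in the deposited expression table, where 36 of the 37 had a row among 18024 genes in all. Mx2 was not analysed here.

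The study sequenced RNA of pancreas, kidney, ovary, heart and small intestine from C57BL/6j mice at 60 days after birth, 24 hours after acute loss of Mdm2, an E3 ligase that marks p53 for breakdown. FMTg mice carry Mdm2FM/- Cag-CreERTg, so that the Mdm2FM allele can be lost on activation, and Tg mice carry Mdm2+/- Cag-CreERTg and keep 1 Mdm2 allele. Every mouse therefore carries the Cag-CreERTg transgene and lacks the other Mdm2 allele, and the Cag promoter drives the recombinase in all cell types and not in one. Each tissue gave 5 FMTg libraries and 3 Tg libraries, 40 in all, from 10 FMTg mice and 3 Tg mice. The same 3 Tg mice gave the Tg libraries of all 5 tissues, so the tissues are not independent of each other. The labels name no agent, dose or route, and no mouse without the transgene was analysed here.

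Type I interferons signal through transcription factors such as STAT2 and IRF9, which bind interferon-stimulated response elements in promoters and drive a shared antiviral program. Its products include sensors of viral RNA and DNA, the ubiquitin-like modifier ISG15, the IFIT proteins that bind foreign RNA, the OAS enzymes that make an activator of RNase L, and GTPases that restrict viruses. Many of these genes are also expressed at a low tonic level without infection, which in the gut depends in part on the microbiota.

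Promoters of the members were searched for this element. The search motif was the core of the interferon-stimulated response element, written as GAAA, any 2 bases and GAAA again, and sought on both strands, overlapping matches included, within 250 bases before to 50 bases after each annotated gene start (RefSeq, GRCm38.p6). Of the 28 members with a promoter entry, 15 (53.6%) held at least 1 match, against 1079 of 27025 genes with an entry (3.99%). A match is a description of letters and not a site in use. The 250 bases before the start are printed for 5 members. They are in lower case with the matches in capitals, read along the gene's own strand. Isg15 was chosen because its matches overlap. Ifit3 and Ifit3b were chosen because FMTg and Tg pancreas libraries parted for Ifit3 and overlapped for this near-identical copy. Oas3 was chosen because its level varied most between tissues, and Bst2 because it had the smallest p in the ovary. A match on the opposite strand reads as TTTC, any 2 bases and TTTC.
Isg15: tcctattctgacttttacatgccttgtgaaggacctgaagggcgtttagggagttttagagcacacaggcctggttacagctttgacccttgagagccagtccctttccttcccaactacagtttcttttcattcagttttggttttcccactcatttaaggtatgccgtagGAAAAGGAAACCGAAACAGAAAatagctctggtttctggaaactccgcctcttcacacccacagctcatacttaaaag
Ifit3: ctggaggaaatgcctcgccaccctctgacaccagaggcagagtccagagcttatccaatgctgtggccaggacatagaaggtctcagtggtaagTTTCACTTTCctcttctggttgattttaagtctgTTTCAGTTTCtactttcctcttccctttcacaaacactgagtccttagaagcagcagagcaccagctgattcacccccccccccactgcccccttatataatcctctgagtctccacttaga
Ifit3b: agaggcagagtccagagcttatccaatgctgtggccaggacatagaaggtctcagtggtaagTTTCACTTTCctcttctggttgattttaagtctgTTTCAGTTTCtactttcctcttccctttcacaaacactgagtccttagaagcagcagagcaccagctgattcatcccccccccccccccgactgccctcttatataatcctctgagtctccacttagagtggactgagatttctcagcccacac
Oas3: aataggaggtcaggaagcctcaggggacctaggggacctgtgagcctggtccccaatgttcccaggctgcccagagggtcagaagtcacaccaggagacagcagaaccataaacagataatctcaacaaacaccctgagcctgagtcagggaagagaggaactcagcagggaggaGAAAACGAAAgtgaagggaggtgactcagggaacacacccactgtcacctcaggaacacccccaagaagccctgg
Bst2: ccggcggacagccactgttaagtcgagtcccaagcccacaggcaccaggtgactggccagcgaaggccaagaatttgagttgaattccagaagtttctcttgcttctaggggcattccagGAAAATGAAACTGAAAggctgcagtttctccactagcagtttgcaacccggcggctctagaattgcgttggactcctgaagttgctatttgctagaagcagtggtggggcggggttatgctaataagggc

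The Isg15 stretch is chr4:156200819-156201068 on the minus strand, and its 3 overlapping matches begin 78 bases before the gene start. Those of Ifit3 (chr19:34583279-34583528) and Ifit3b (chr19:34607707-34607956), both on the plus strand, hold 2 separate matches each on the opposite strand, the first beginning 156 and 188 bases before the start. Oas3 (chr5:120777660-120777909, minus strand) held 1 match 75 bases before its start, and Bst2 (chr8:71537473-71537722, minus strand) held 2 overlapping matches from 130 bases before its start. The 13 members with an entry and no match include Cmpk2, a mitochondrial nucleotide kinase; that these letters are not in this window says nothing about which factor acts on the gene.

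Total depth was 7.16 to 29.0 M (mega) reads a library, lowest in the pancreas at 7.16 to 13.9 M. In each tissue the FMTg libraries of replicate 4 and replicate 5 showed fewer genes than other libraries at an equal depth of 7.16 M reads, most of all in the pancreas, with 12004 and 13770 genes against 15009 to 16071 in the other 6. Reads of 4 genes of the Y chromosome marked 9 of 25 FMTg libraries (at least 1582 normalised reads) and 0 of 15 Tg libraries (at most 53.7), and the remaining FMTg libraries had at most 62.1. In the kidney, heart and small intestine the marked libraries were FMTg replicate 4 and FMTg replicate 5, with FMTg replicate 1 added in the pancreas. All Tg mice gave an ovary library and are female, whereas the FMTg groups of these tissues mix both sexes. Sex and genotype are thus partly confounded in pancreas, kidney, heart and small intestine. Summed markers of each labelled tissue were higher in every one of its own libraries than in any library of another tissue. Some libraries still held many reads of another tissue's markers. Kidney markers summed to 104771 normalised reads in pancreas FMTg replicate 3, against 2388 to 3329 in Tg pancreases and 241537 to 331297 in kidneys. Cardiomyocyte markers summed to 69556 in small intestine Tg replicate 1, against 249322 to 982038 in hearts. Their part in the members' values was not tested. Mdm2, itself a p53 target, had log2 differences (FMTg minus Tg) of 1.59, 2.00, 0.77, 0.80 and 1.30 in pancreas, kidney, ovary, heart and small intestine, and of 10 p53 targets used as a check 8, 9, 0, 3 and 0 passed the adjusted threshold upward. Of these targets 9, 9, 9, 10 and 10 had higher FMTg means and 9, 9, 8, 9 and 9 an unadjusted p below 0.05, with median log2 differences of 1.81, 2.39, 1.06, 1.31 and 1.71.

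No interferon-stimulated gene passed the test between FMTg and Tg libraries in any tissue. In limma, which compared the deposited log2 values with genotype as the only term and adjusted p over all genes tested in the tissue, 0 of 36 members passed an adjusted p of 0.05 in the pancreas, kidney, ovary, heart or small intestine. Over all genes the shares that passed were 0.446%, 0.616%, 0%, 0.019% and 0%. At an unadjusted p below 0.05 there were 3, 3, 4, 3 and 2 members, against 8.42%, 8.32%, 6.36%, 6.33% and 2.41% of all genes. A second test, voom on the recovered reads, also called 0 members in each tissue, with 3, 3, 4, 2 and 2 at the unadjusted level. These are tissue totals, in which fewer cells of a type and less RNA per cell cannot be told apart.

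A missed threshold does not show that the genes were alike in both genotypes. The 95% interval of the log2 difference lay within 1 on either side of 0, that is within 2-fold, for 6 pancreas, 25 kidney, 24 ovary, 19 heart and 27 small intestine members. The pancreas thus left changes of over 2-fold possible for the other 30 members. Within groups the median SD of the members there was 0.86 on the log2 scale, against 0.51 over all genes, while in the other tissues it was 0.31 to 0.40, against 0.26 to 0.40 over all genes.

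The direction of the members' means differed from tissue to tissue. FMTg means were higher for 11 and lower for 25 members in the pancreas (median log2 difference -0.23), and higher for 6 and lower for 30 in the kidney (-0.17). They were higher for 21 in ovaries (0.05), 29 in hearts (0.28) and 23 in small intestines (0.09). Over all genes the medians were -0.05, -0.05, -0.02, -0.01 and -0.05, and 45.4%, 42.5%, 47.1%, 48.6% and 42.3% of genes had the higher mean in FMTg libraries.

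**Figure D1:**
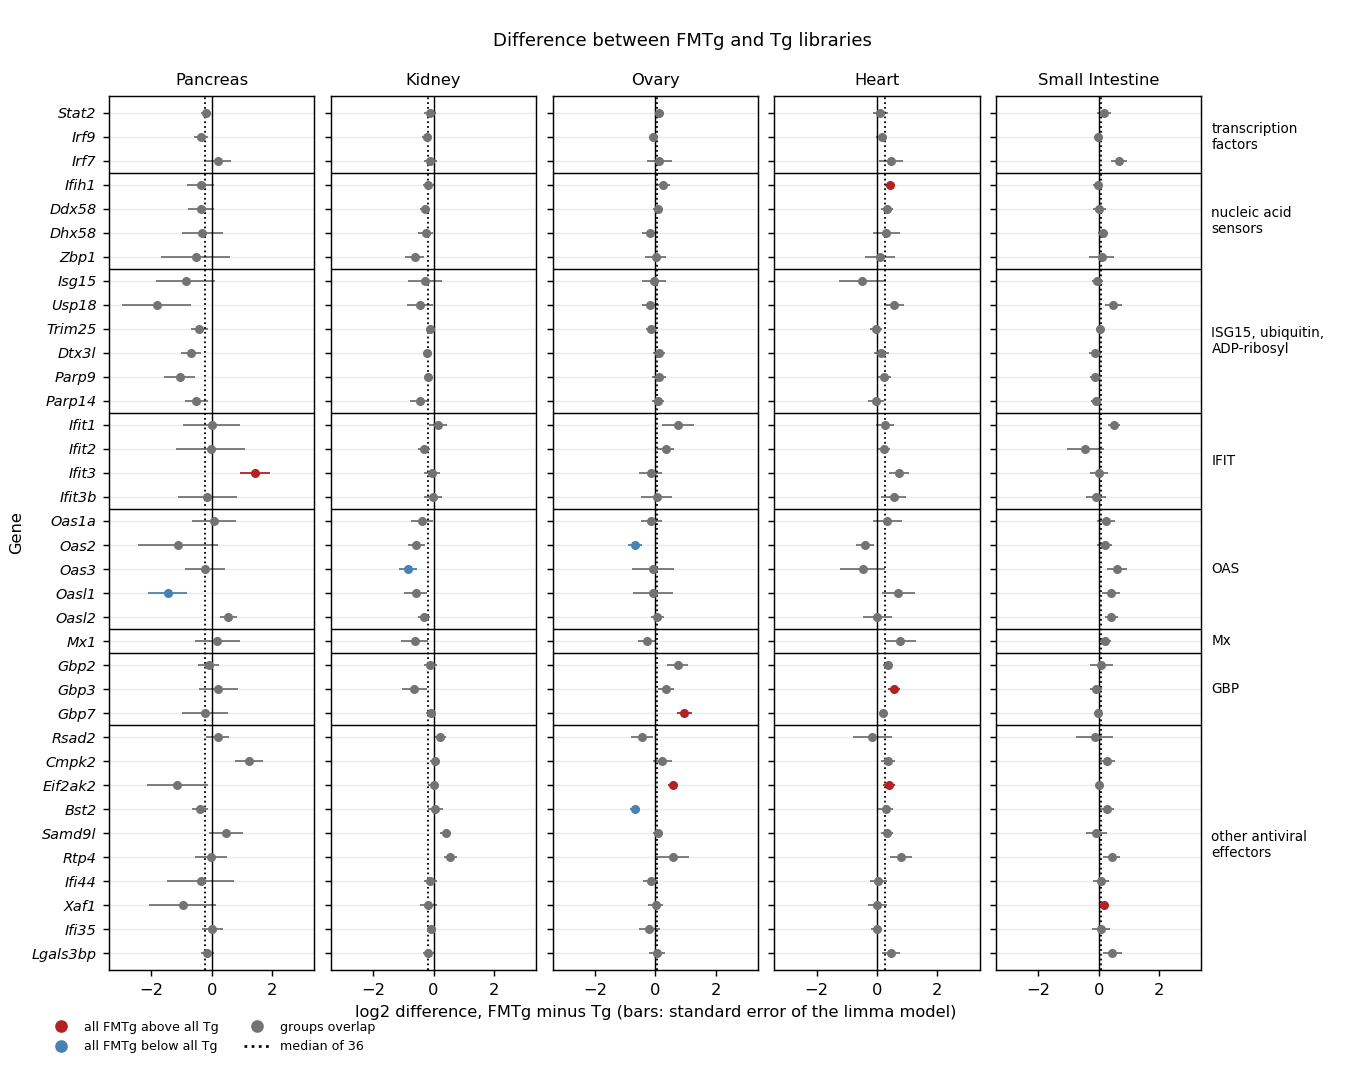
Log2 difference (FMTg minus Tg) of the 36 members in each tissue, from 5 FMTg and 3 Tg libraries, with bars for the limma standard error; the dotted line is the median of the members (-0.23, -0.17, 0.05, 0.28 and 0.09). Red points mark members with no FMTg library within or under the Tg range, blue points the reverse, and no member passed the adjusted threshold.

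In the pancreas Ifit3 and Cmpk2 had the smallest p of members with a higher FMTg mean. Ifit3, which works with IFIT1 in binding viral RNA, had 90.6, 88.9, 127, 154 and 68.7 normalised reads in the FMTg libraries, against 26.7, 61.9 and 23.3 in the Tg libraries. No FMTg library reached down to the Tg range, and the log2 difference was 1.43 ± 0.49 (SE) with an adjusted p of 0.417. Groups parted upward in this way for 1 member, against 4.68% of all genes. Cmpk2 had 339, 303, 323, 92.4 and 415 normalised reads in FMTg libraries and 86.2, 121 and 126 in Tg libraries. All FMTg values but 1 stood well above every Tg value, and that of replicate 4 lay among them; the difference was 1.23 ± 0.47 (adjusted p = 0.505).

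Cmpk2 was the member whose call depended most on how the pancreas was treated. Without FMTg replicate 4 it was higher by 1.59 in FMTg with an adjusted p of 0.018 in limma, without both low-numbered mice (FMTg replicates 4 and 5) by 1.50 (adjusted p = 0.0255), with library weights by 1.50 (adjusted p = 0.00236), and in 1 model for all libraries by 1.23 (adjusted p = 0.0286). Restricted to mice with an ovary library, all female, it was higher by 1.46 and did not pass (adjusted p = 0.124). Ifit3 passed in the 1 model for all libraries (1.40, adjusted p = 0.0372) and in none of the other 3 of these fits. Without FMTg replicate 3, the pancreas library with the most kidney marker reads, the difference was 1.16 for Cmpk2 and 1.35 for Ifit3. Neither gene passed in that limma fit (adjusted p = 0.539 and 0.504).

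A near-identical copy and a neighbouring gene serve for comparison. Ifit3b, the copy of Ifit3 next to it on chromosome 19, had 39.4, 32.9, 44.1, 0 and 5.73 normalised reads in FMTg pancreas libraries and 10.3, 28.4 and 14.0 in Tg ones, so that its groups overlapped. How the counting divided reads between these copies is not given in the sources used here, and the values of both are uncertain to that extent. The log2 value of Ifit3 minus that of Ifit3b averaged 2.44 in FMTg and 0.86 in Tg libraries, a difference of 1.58. The exact two-sided permutation p was 0.125 over 56 divisions, adjusted 0.143 over 2 gene pairs chosen after their values were seen. The FMTg average includes the libraries with 0 and 5.73 normalised reads of Ifit3b, where a count of 0 allows up to 18.5. In the other FMTg libraries Ifit3b, at 39.4, 32.9 and 44.1, lay above every Tg value, as Ifit3 did. Each FMTg library exceeded all Tg libraries in this log2 gap, but its average size rests in part on low counts. A differing response of the copies was not shown. Rsad2, the neighbour of Cmpk2 on chromosome 12 that encodes the antiviral enzyme viperin, had 193, 166, 247, 142 and 85.9 normalised reads in FMTg and 113, 173 and 133 in Tg libraries. The log2 value of Cmpk2 minus that of Rsad2 averaged 0.73 in FMTg and -0.31 in Tg libraries (difference 1.04, exact two-sided permutation p = 0.143, adjusted 0.143).

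Oasl1, an OAS-like protein that in mice restrains translation of Irf7, had the next smallest p in the pancreas. It had 72.9, 98.6, 80.0, 24.6 and 17.2 normalised reads in FMTg libraries, against 103, 116 and 257 in Tg libraries. Each FMTg library lay below every Tg library, as for 1 member and 5.05% of all genes, and the difference was -1.46 ± 0.64 (adjusted p = 0.58). FMTg replicate 4 and FMTg replicate 5 were the lowest here. The difference was -0.76 without both, -0.84 with library weights and -0.68 among mice with an ovary library. In the pancreas 12 of 36 members had both of these libraries below the other 6, against 20.7% of all genes.

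The ISG15 system leaned the same way in the pancreas, with 6 of 6 FMTg means lower and a median of -0.78. Usp18, the protease that removes ISG15 and dampens receptor signalling, had 102, 96.6, 73.5, 0 and 25.8 normalised reads in FMTg libraries and 67.7, 124 and 271 in Tg libraries (-1.83 ± 1.14, adjusted p = 0.745). Isg15 had 76.8, 42.5, 34.3, 0 and 28.6 in FMTg libraries and 36.9, 41.2 and 60.7 in Tg libraries (-0.87 ± 0.99, adjusted p = 0.848). In both genes the lowest library was FMTg replicate 4, and the groups overlapped. That library had no read of 7 members (Zbp1, Isg15, Usp18, Ifit2, Ifit3b, Oas2 and Xaf1); at its depth 1 read is worth 6.16 normalised reads, and a count of 0 allows up to 3 reads or 18.5 normalised reads. It was lowest for 20 of 36 members and for 39.8% of all genes, and the mean of the members there, relative to the Tg mean, was -1.60 against -0.66 for all genes. Without it 19 members were higher and 17 lower in FMTg, and the median was 0.02. The median was also above 0 with library weights (0.17), without the low-numbered mice (0.11) and among mice with an ovary library (0.12), so its sign rests on these libraries. The part of this library's low gene number in these results was not tested.

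**Figure D2:**
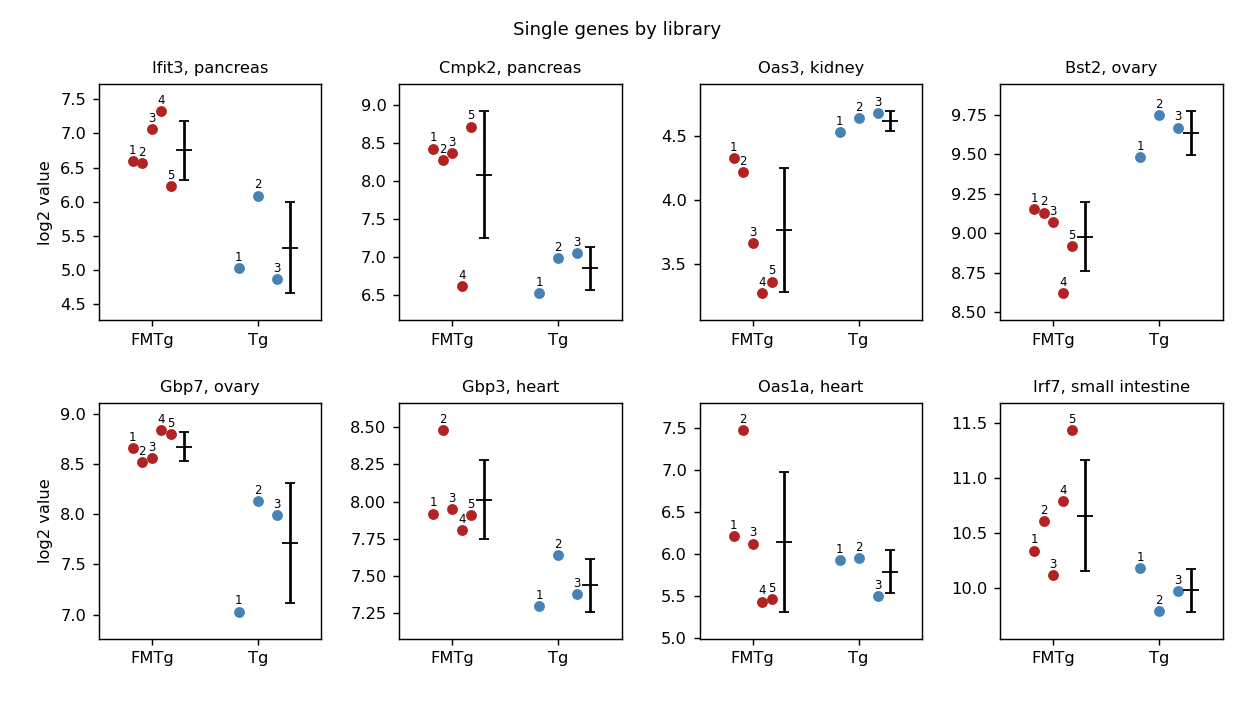
Log2 values of 8 gene and tissue pairs by library, FMTg (red, n = 5) beside Tg (blue, n = 3); numbers are replicates and black bars the mean and SD. The 5 FMTg libraries of Ifit3 lie above the 3 Tg libraries in the pancreas, those of Oas3 in the kidney and Bst2 in the ovary lie below, and Oas1a in the heart is set by FMTg replicate 2.

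In the kidney the members lay mostly lower in FMTg libraries, with the OAS proteins among the lowest groups. All 5 OAS members had lower FMTg means (median -0.57). Oas3, an enzyme that makes the activator of RNase L, had 14.3, 12.9, 7.13, 4.36 and 4.95 normalised reads in FMTg libraries, against 17.3, 19.0 and 19.7 in Tg libraries. Its FMTg libraries all lay below the Tg libraries, which held for 1 member and 4.56% of all genes (upward for 0 members and 4.17%), and the difference was -0.85 ± 0.30 (adjusted p = 0.543), or -0.54 without FMTg replicates 4 and 5.

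A pair of other effectors had higher FMTg means in the kidney. Rtp4, an interferon-induced transmembrane protein, had 55.0, 81.4, 66.9, 84.4 and 75.4 normalised reads in FMTg libraries and 33.7, 61.0 and 48.8 in Tg libraries (0.56 ± 0.22, adjusted p = 0.564). Samd9l, an antiviral and antiproliferative factor, had 4508, 3523, 4170, 6481 and 5237 in FMTg libraries and 3532, 3471 and 3536 in Tg libraries (0.41 ± 0.18, adjusted p = 0.564). One FMTg library of each gene, replicate 1 for Rtp4 and replicate 2 for Samd9l, lay within the Tg range. The difference of Rtp4 was 0.36 without Tg replicate 1, and that of Samd9l was 0.20 without FMTg replicates 4 and 5. Reads of Rtp4 may include reads of the overlapping Masp1, since strand is not stated.

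The kidney direction rested on FMTg replicate 4 and FMTg replicate 5. Both lay below the other 6 libraries for 19 of 36 members, against 28.7% of all genes, and the members' mean there was -0.56 and -0.47 relative to the Tg mean (-0.14 and -0.12 over all genes). Without these libraries, which are also the kidney libraries with reads of Y chromosome genes, 18 members were higher and 18 lower in FMTg and the median was -0.01. Neutrophil markers were lower in FMTg means for 7 of 7 genes in the kidney, with summed levels of 164 to 345 normalised reads in FMTg and 349 to 930 in Tg libraries and no marker without reads. This was not particular to the kidney. Their mean log2 values were lower in FMTg for 7 of 7 genes in pancreas and heart (medians -1.77 and -1.42). In ovary and small intestine they were lower for 6 of 7 (medians -0.76 and -0.65). Mean log2 values in FMTg kidneys were also lower for 8 of 9 macrophage markers (median -0.26), 8 of 8 intestinal epithelium markers (median -1.41, 2 of them at an unadjusted p below 0.05) and 7 of 7 acinar pancreas markers (median -3.28). Summed macrophage markers were 1395 to 1812 normalised reads in FMTg and 1754 to 2094 in Tg kidneys, and summed intestinal epithelium markers 3022 to 5609 in FMTg and 3748 to 6854 in Tg kidneys. Acinar markers summed to 496 and 378 in FMTg replicates 4 and 5, to 2382, 19638 and 169078 in the other FMTg kidneys and to 12788 to 55587 in Tg kidneys. By mean normalised reads all 7 acinar markers were higher in FMTg kidneys, opposite to the log2 means. Log2 means of 7 of 7 acinar markers were also lower in FMTg ovary, heart and small intestine (medians -3.65, -3.31 and -0.84). No marker of these lists was without reads, and the part of these cells in the result was not tested.

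The ovary held the 3 smallest unadjusted p of any member and tissue, 0.00232 for Bst2, 0.00397 for Gbp7 and 0.00446 for Eif2ak2. Bst2, also called tetherin, which holds budding virions at the cell surface, had 562, 553, 530, 386 and 477 normalised reads in FMTg libraries, against 709, 857 and 809 in Tg libraries. Every FMTg value lay below every Tg value, and the difference was -0.66 ± 0.16 (adjusted p = 0.399). Gbp7, a guanylate-binding protein, had 397, 360, 370, 451 and 438 in FMTg libraries and 124, 273 and 248 in Tg libraries (0.96 ± 0.25, adjusted p = 0.423). Eif2ak2, the kinase PKR that halts translation on double-stranded RNA, had 858, 881, 876, 879 and 998 in FMTg libraries and 467, 628 and 725 in Tg libraries (0.58 ± 0.16, adjusted p = 0.438). Both stood above all Tg libraries in every FMTg library, and Tg replicate 1 was the lowest library of each. Without Tg replicate 1 the difference of Gbp7 was 0.61 (adjusted p = 0.999).

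Altogether the ovary groups parted upward for 2 members (3.43% of all genes) and downward for 2 (2.38%), the other being Oas2. Tg replicate 1 also held the most reads of acinar pancreas markers outside the pancreas, 2351369 normalised reads. FMTg replicate 3 was the highest library for 16 of 36 members, against 16.2% of all genes. Of the markers of lymphoid cells, 5 of 6 B and plasma cell genes and 6 of 9 T and NK cell genes were highest there, and 6 of 8 intestinal epithelium genes; none of these markers was without reads in the ovary. The summed B and plasma cell markers ran from 123 to 4905 normalised reads in FMTg ovaries, with 4905 in replicate 3, and from 321 to 533 in Tg ovaries. Their part in the members' values was not tested.

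In the heart 29 of 36 FMTg means were higher. They included all 3 transcription factors, 4 sensors, 4 IFIT genes and 3 guanylate-binding proteins, Mx1, 8 of 10 other effectors, 3 of 5 OAS genes and 3 of 6 genes of the ISG15 group. Gbp3, another guanylate-binding protein, had 236, 350, 241, 218 and 235 normalised reads in FMTg libraries, against 152, 193 and 160 in Tg libraries (0.57 ± 0.20, adjusted p = 0.76). Ifih1, the RNA sensor MDA5, had 562, 749, 475, 653 and 528 in FMTg libraries and 462, 429 and 407 in Tg libraries (0.44 ± 0.17, adjusted p = 0.76). Both genes parted the groups with no overlap, as did Eif2ak2, so that 3 members did so upward (3.42% of all genes) and 0 downward (3.49%). Gbp2, with 441, 592, 497, 621 and 619 in FMTg libraries and 442, 451 and 389 in Tg libraries, overlapped by 1 library (0.36 ± 0.16, adjusted p = 0.76), and its difference was 0.24 without FMTg replicates 4 and 5.

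Much of the heart pattern rested on 1 library, FMTg replicate 2. This library was the highest of 8 for 29 members, against 28.1% of all genes, and all 36 members lay above their FMTg mean there. Relative to the mean of the other 7 libraries the median of the members was 0.82 higher on the log2 scale, against 0.08 over all genes. Oas1a, another synthetase of the OAS family, had 171 normalised reads there and 37.1 to 68.0 in the other 7 libraries. Mx1, a gene of the Mx GTPase family, had 134 there and 17.0 to 54.3 elsewhere. Isg15 had 163 there and 5.3 to 70.8 elsewhere, and Oasl2 had 854 there and 173 to 393 elsewhere. In each of these genes the other FMTg libraries overlapped the Tg libraries. Without it the median of the members was 0.12, with 24 higher and 12 lower in FMTg, and 0 members passed.

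Other genes and immune markers were high in the same heart library. It was the highest for 27 of 44 other type I interferon-stimulated genes and 13 of 26 genes of the interferon gamma list. Macrophage markers had 9 of 9 higher FMTg means, and their summed level was 8086 to 19680 normalised reads in FMTg hearts, highest in replicate 2, against 5062 to 7913 in Tg hearts. Neutrophil markers summed to 17607 in FMTg replicate 2, to 373 to 1098 in the other FMTg hearts and to 1912 to 6059 in Tg hearts. No macrophage or neutrophil marker was without reads, and the part of these cells in the result was not tested. The mouse of this library, FMTg replicate 2 in every tissue, lay above its group's mean of the members by 0.77 in the heart, 0.56 in the pancreas and 0.39 in the kidney, by 0.04 in the small intestine, and at -0.17 in the ovary.

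**Figure D3:**
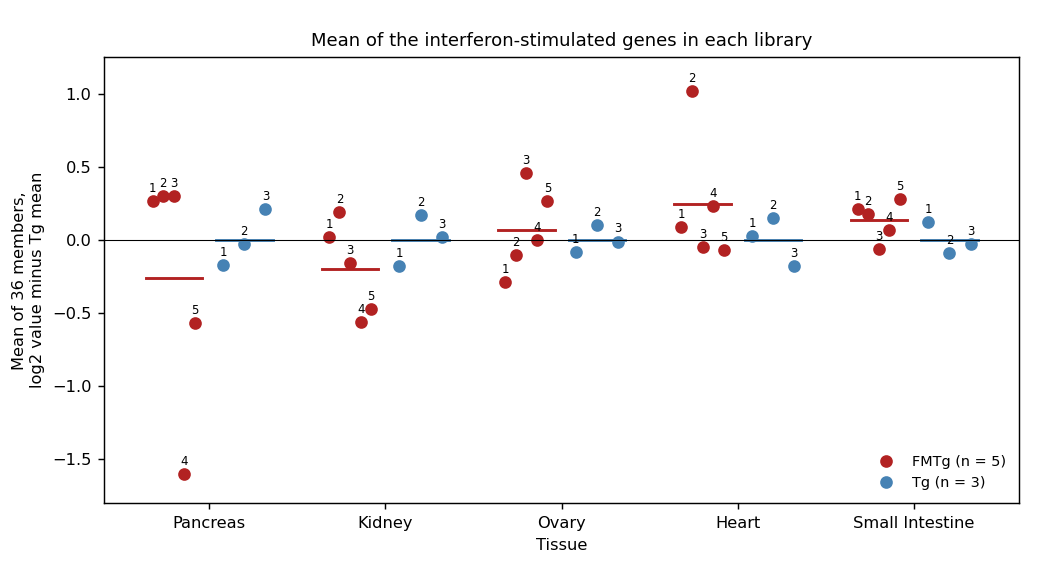
Mean of the 36 members in each library, as log2 value minus the Tg mean of the tissue, with FMTg (red) left of Tg (blue) and the group mean as a line; numbers are replicates. Heart FMTg replicate 2 stands at 1.02 and pancreas FMTg replicate 4 at -1.60, and all other libraries lie between -0.57 and 0.46.

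The small intestine had the most members with an interval within 2-fold (27), and 2 at an unadjusted p below 0.05. Irf7, the factor that amplifies interferon production, had 1292, 1559, 1105, 1769 and 2770 normalised reads in FMTg libraries, against 1153, 882 and 996 in Tg libraries (0.68 ± 0.27, adjusted p = 0.99). Ifit1, which binds viral RNA that lacks cap methylation, had 668, 592, 505, 863 and 665 in FMTg libraries and 565, 361 and 467 in Tg libraries (0.50 ± 0.20, adjusted p = 0.99). Oasl2 had 1194, 1324, 1037, 1476 and 2084 in FMTg libraries and 1098, 963 and 1048 in Tg libraries (0.42 ± 0.21, adjusted p = 0.99). In all of these the highest Tg library exceeded the lowest FMTg library, FMTg replicate 3. Without FMTg replicates 4 and 5 the difference of Irf7 was 0.38 and that of Oasl2 0.19. Oasl2 was at 0.27 without FMTg replicate 5 alone, and Ifit1 at 0.33 without Tg replicate 2. All 5 OAS members had higher FMTg means here (median 0.42), whereas all 5 had lower ones in the kidney. Xaf1, a proapoptotic interferon-induced protein, was the 1 member whose FMTg libraries stood wholly above the Tg range (1.69% of all genes), and 0 lay below (1.19%).

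A joint model of the 40 libraries, in which libraries of 1 mouse share a random term (correlation 0.249), gave the mean difference over the 5 tissues. Of the 36 members 0 passed, against 0.729% of 16185 genes, and 2 had an unadjusted p below 0.05, against 12.1%. The median of the members' mean differences was -0.06, the same as over all genes, with 14 higher and 22 lower in FMTg. Cmpk2 had the smallest p, with a mean difference of 0.42 ± 0.19 (adjusted p = 0.364), and its difference was above 0 in each tissue: 1.23, 0.05, 0.24, 0.36 and 0.28 in pancreas, kidney, ovary, heart and small intestine. Without the low-numbered mice it was 0.50 higher in FMTg with an adjusted p of 0.0081, the only member to pass in that fit. Rtp4 followed at 0.55 ± 0.26 (adjusted p = 0.391), with 0.43 to 0.79 in 4 tissues and -0.03 in the pancreas. Ifit3 (0.36 ± 0.22, adjusted p = 0.532), Parp14, an ADP-ribosyltransferase (-0.26 ± 0.19, adjusted p = 0.604), and Trim25, the ubiquitin ligase that activates RIG-I (-0.15 ± 0.12, adjusted p = 0.658), came next. The mean difference of Parp14 was 0.06 without the low-numbered mice, so its sign rests on them.

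The test of whether the genotype difference varied between tissues also passed for 0 members, against 0.192% of all genes, and 4 members had an unadjusted p below 0.05, against 8.46%. Ifit3 had the smallest p (unadjusted 0.00566, adjusted 0.262), with differences of 1.43, -0.06, -0.15, 0.73 and 0.00 in pancreas, kidney, ovary, heart and small intestine. Bst2 came second (unadjusted 0.0107, adjusted 0.347), at -0.39, 0.06, -0.66, 0.29 and 0.27 in the same order. Parp9, which pairs with the ubiquitin ligase Dtx3l and overlaps its gene, Cmpk2 and Oasl1 followed with adjusted p of 0.529, 0.55 and 0.595.

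**Figure D4:**
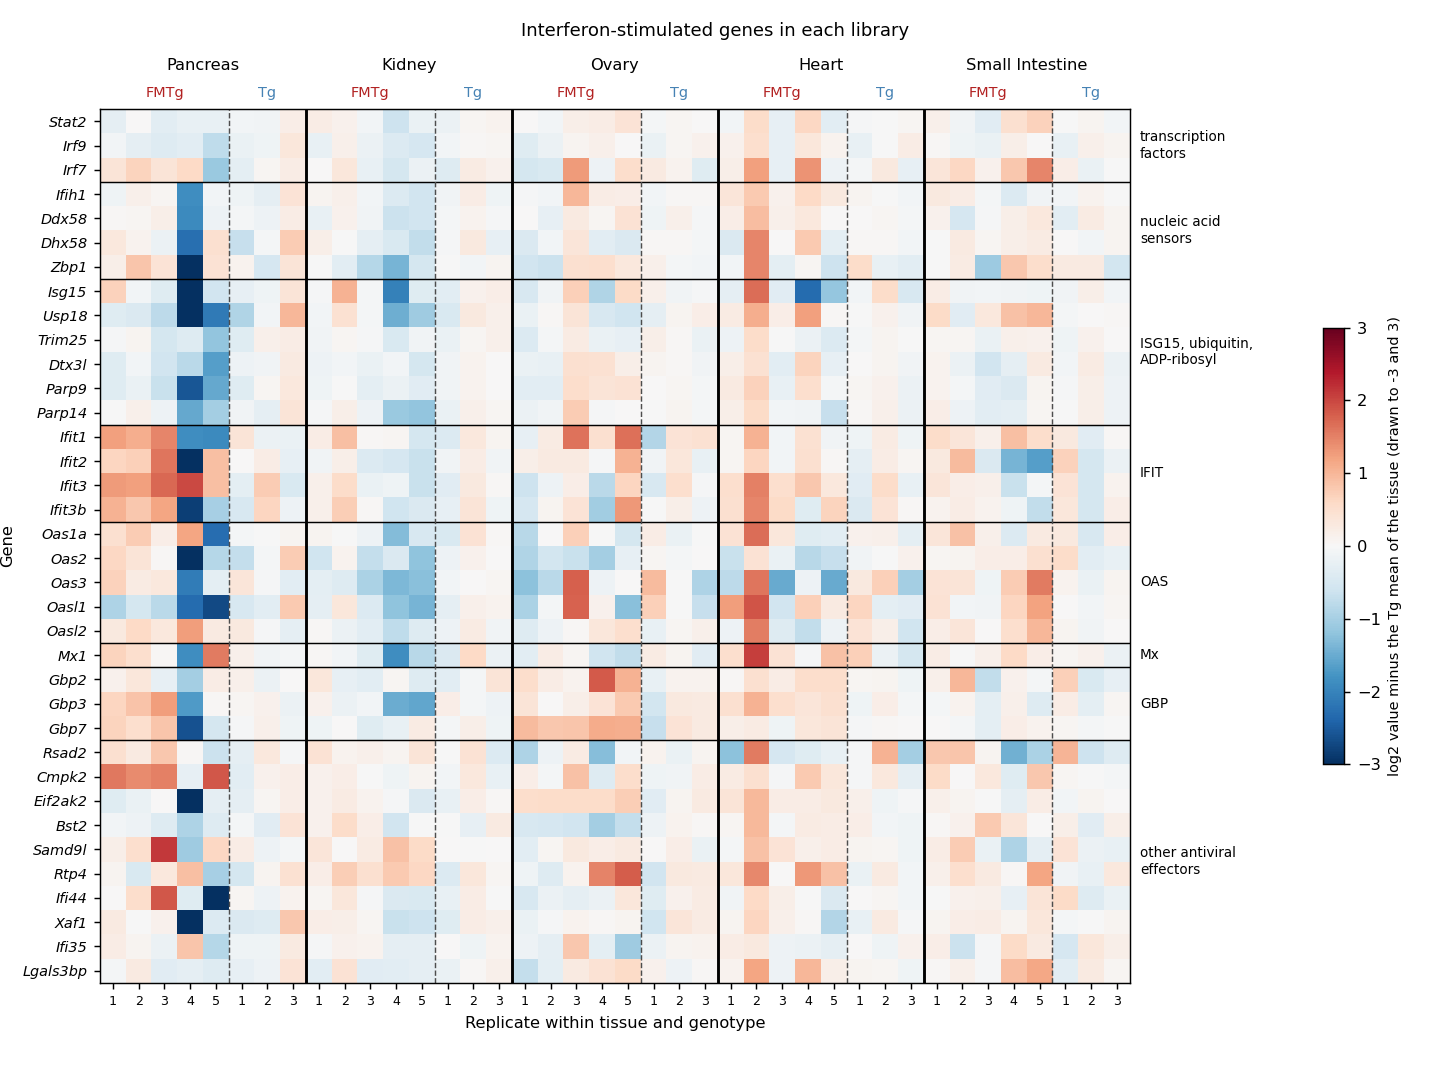
Log2 value of each of the 36 members in each of the 40 libraries minus the Tg mean of the tissue, drawn to -3 and 3, with FMTg columns left of Tg columns and members grouped by role. Pancreas FMTg replicate 4 is low for most members, heart FMTg replicate 2 is high for 29, and kidney FMTg replicates 4 and 5 lie below the other 6 libraries for 19.

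Other lists of the interferon pathway also had 0 genes called, among few called over all genes. Of the 6 interferon receptor genes, 9 genes of signal transduction, 7 inhibitors of signalling, 15 other genes of nucleic acid sensing, 44 other type I interferon-stimulated genes and 26 genes of the interferon gamma response, limma called 0 in each tissue. Over all genes 0.446%, 0.616%, 0%, 0.019% and 0% passed in pancreas, kidney, ovary, heart and small intestine. A count of 0 in lists of this size therefore tells little about the pathway. The 44 other type I genes had 20, 16, 28, 31 and 28 higher FMTg means in pancreas, kidney, ovary, heart and small intestine, with medians of -0.13, -0.07, 0.15, 0.13 and 0.05. The interferon gamma list had medians of -0.24, -0.19, 0.14, 0.23 and 0.04. At an unadjusted p below 0.05 the 44 genes counted 4, 1, 3, 0 and 1, and each of the other lists 0 to 4 genes in a tissue. The shares of all genes at that level were 8.42%, 8.32%, 6.36%, 6.33% and 2.41%. Of the interferons themselves, Ifne, the epithelial interferon of the female reproductive tract, and Ifng were the ones with a row. Ifne had 124 reads over the 5 FMTg ovaries and 82 over the 3 Tg ovaries. On the deposited log2 scale it was lower in FMTg ovaries, by -0.45, and did not pass in limma (adjusted p = 0.856). In other tissues Ifne had at most 3 reads over the libraries of a genotype. Ifng, made by T and NK cells, had 12 reads over the FMTg and 2 over the Tg small intestines. These read totals of Ifne and Ifng are not normalised and cover unequal numbers of libraries, so they do not compare the genotypes. Markers of macrophages, plasmacytoid dendritic cells, neutrophils, T and NK cells, B and plasma cells and endothelium also had 0 genes called in every tissue, with 0 to 7 of a list at an unadjusted p below 0.05, the 7 being macrophage markers in the heart.

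In the Tg libraries the level of the members differed between tissues. Among the 15 Tg libraries, in a limma model with tissue and mouse, all 36 members differed between tissues, as did 93.8% of 16251 genes. The small intestine had the highest mean for 25 members, the kidney for 6, the heart for 3, the ovary for 2 and the pancreas for 0. Over all genes these shares were 22.7%, 17.2%, 21.8%, 21.5% and 16.8%. The kidney was the lowest tissue for 20 members and the pancreas for 10, against 22.5% and 27.5% of all genes. In FMTg libraries the small intestine was again highest for 25 members, and 34 members had the same highest tissue in both genotypes. For 18 members all 3 Tg small intestine libraries lay above the other 12 Tg libraries. The share of all genes was not computed for this count, nor for the 25 members in FMTg libraries and the 34 in both genotypes.

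Set against the small intestine, 29 members were lower in pancreas, 27 in kidney, 23 in ovary and 25 in heart at an adjusted p below 0.05, against 33.4%, 31.1%, 27.8% and 32.6% of all genes. The median differences of the members were -1.25, -1.44, -0.82 and -1.32, and those of all genes -0.18, -0.08, 0.03 and -0.04. Size factors computed over all tissues together put the libraries on a common scale, which leaves levels across tissues dependent on that scaling.

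Oas3 had the widest range, 4.20 on the log2 scale. Its Tg libraries had 482, 386 and 469 normalised reads in the small intestine, 106, 144 and 38.8 in the heart, 94.4, 69.6 and 56.0 in the pancreas, 91.6, 44.0 and 20.9 in the ovary and 17.3, 19.0 and 19.7 in the kidney. The mean of the small intestine was 23.9 times that of the kidney. The small intestine parted from the heart (heart minus small intestine -2.31 ± 0.40, adjusted p = 4.61e-04), heart and pancreas, and pancreas and ovary, did not part (adjusted p = 0.659 and 0.208), and the kidney was lower than the ovary (-1.05 ± 0.40, adjusted p = 0.0436).

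Oasl1 ranged over 4.03, with 694, 647 and 706 normalised reads in Tg small intestines and 29.0, 41.2 and 39.3 in Tg kidneys, an 18.7-fold ratio of the means. The pancreas came second with 103, 116 and 257, lower than the small intestine by a log2 difference of -2.18 ± 0.42 (adjusted p = 0.00121). The next steps down, pancreas to ovary, ovary to heart and heart to kidney, did not pass (adjusted p of 0.0564, 0.121 and 0.995). Zbp1, a sensor of Z-form nucleic acid that can start necroptosis, ranged over 3.81, with 558, 556 and 308 in Tg small intestines and 26.7, 25.4 and 29.1 in Tg kidneys (17.5-fold). Ovary, pancreas, heart and kidney followed the small intestine in that order, and of these steps the first passed (ovary minus small intestine -2.55 ± 0.29, adjusted p = 5.43e-05). The others had adjusted p of 0.632, 0.265 and 0.0665.

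Ifit1 and Oas1a completed the 5 widest ranges. Ifit1 had 565, 361 and 467 normalised reads in Tg small intestines and 49.2, 30.9 and 30.4 in Tg pancreases, 12.6-fold apart. The heart came second (heart minus small intestine -1.95 ± 0.36, adjusted p = 7.02e-04). Heart, ovary and kidney lay between and did not part from their neighbours in order (adjusted p of 0.304 and 0.75), nor did kidney and pancreas (0.0508). Oas1a had 418, 245 and 392 in Tg small intestines and 22.7, 46.7 and 33.8 in Tg kidneys, 10.2-fold apart, with the ovary second (-1.67 ± 0.28, adjusted p = 5.39e-04) and no later step past the threshold (0.258, 0.0866 and 0.167). Reads of Oas1a may be shared with near-identical Oas1 copies.

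The other 11 members had their highest Tg mean in other tissues. In the kidney these were Ifit2, Ifit3, Ifit3b, Gbp3, Samd9l and Ifi44. Thus 3 of the 4 IFIT genes had their highest Tg mean there, while Ifit1 had it in the small intestine. For Ifit2 kidney and heart did not part in limma (kidney minus heart 0.29 ± 0.29, adjusted p = 0.416). Among FMTg means Ifit2 was highest in the heart and Gbp3 in the ovary. Samd9l had 3532, 3471 and 3536 normalised reads in Tg kidneys, 2869, 1908 and 1857 in Tg small intestines and 462, 351 and 376 in Tg pancreases, and the kidney exceeded the small intestine by 0.70 ± 0.14 (adjusted p = 0.00145). The heart had the highest mean for Oas2, Gbp7 and Rsad2. For Oas2 it did not part from the ovary in limma (ovary minus heart -0.79 ± 0.32, adjusted p = 0.0586). For Gbp7 it did not part from the small intestine (heart minus small intestine 0.03 ± 0.21, adjusted p = 0.927). Rsad2 had 979, 2085 and 493 in Tg hearts and 433, 600 and 329 in Tg kidneys, a spread in which heart and kidney did not part (kidney minus heart -1.18 ± 0.47, adjusted p = 0.0544). Bst2 peaked in the ovary with 709, 857 and 809, against 392, 325 and 546 in the pancreas (pancreas minus ovary -0.93 ± 0.19, adjusted p = 0.00184) and 103, 87.2 and 127 in the kidney. The other member with its highest mean in the ovary was Gbp2, for which ovary and heart did not part (ovary minus heart 0.23 ± 0.27, adjusted p = 0.506 in limma).

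**Figure D5:**
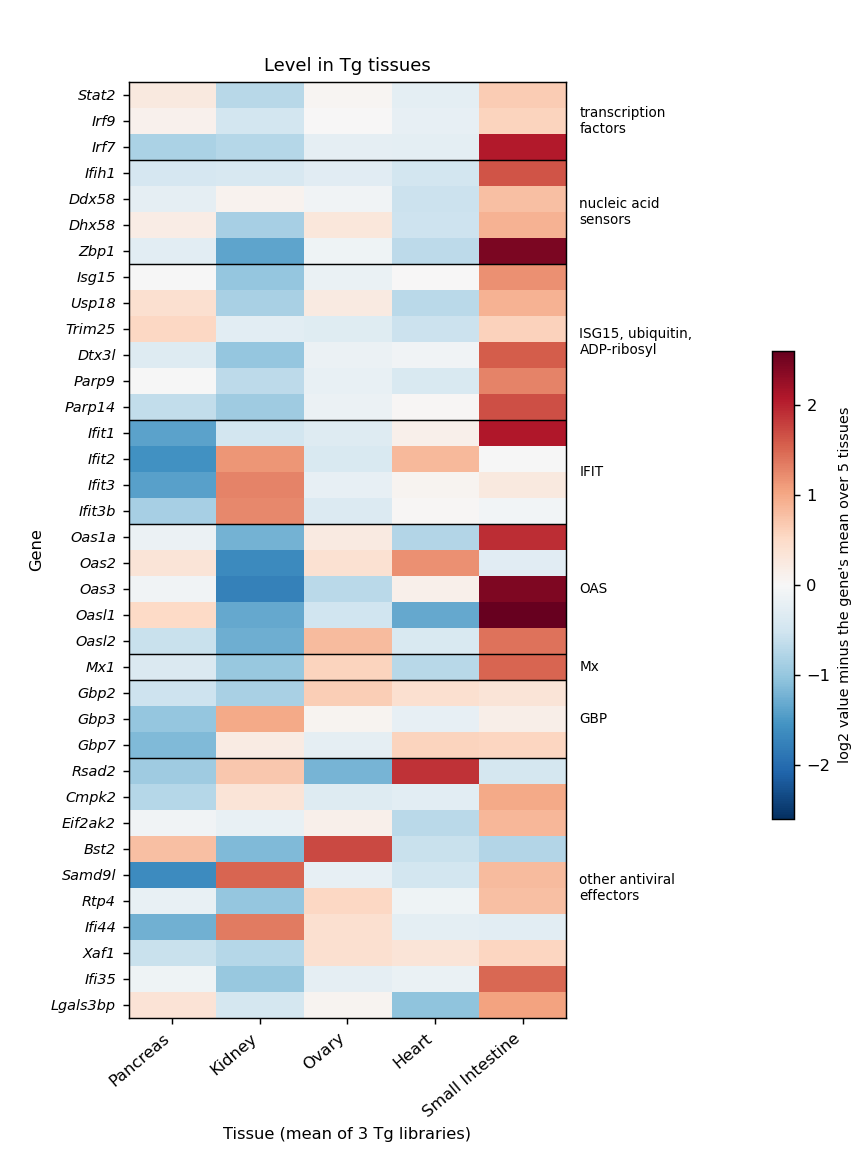
Mean log2 value of each member in the 3 Tg libraries of a tissue, minus the member's mean over the 5 tissues, so that rows compare tissues within a gene and not genes with each other. The small intestine column is the highest for 25 of 36 members, and the kidney column for 6.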

How the data were processed

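RNA was extracted from frozen tissue with Trizol and sequenced on Illumina libraries, per the labels. Per the submitters' processing notes, reads were aligned with STAR 2.6.0b to GRCm38 and processed with DESeq2; the read counter, annotation release, strand setting and gene filter are not given in the sources used here. The authors deposited log2 values after a variance-stabilising transformation of the 40 libraries together, in which a gene without reads has 1.65. Whole read numbers were recovered by inverting that scale (100% of values whole at a tolerance of 0.01), and normalised reads are these divided by a size factor per library. Of 18024 gene IDs, 17079 match GENCODE M21, which gave positions and overlaps: 14 members overlap another gene.

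In each tissue limma 3.58.1 (R 4.3.3, mean-variance trend) compared 5 FMTg with 3 Tg libraries on the deposited log2 values, for genes averaging 1 or more over that floor in the tissue, with Benjamini-Hochberg adjustment over all genes tested. Differences are FMTg minus Tg, errors are limma standard errors, and folds of low genes are understated on this scale. All-tissue models took mouse as a random block (statmod 1.5.0) or, for levels in Tg libraries, as a term. Replicates are separate mice of a genotype. The members and lists were chosen with earlier results of these data known, so their values support no independent claim. Named in full were the 3 members of smallest p per tissue, the 5 of smallest p of the mean difference and of the test of differing differences, and the 5 of widest tissue range; other members were named after their values were seen. Alternatives were no filter, voom on recovered reads, log2 of normalised reads plus 1, no variance trend, library weights, each library left out, the low-numbered mice left out, mice with an ovary library, 1 model for all libraries and a replicate block. The procedure was tested on simulated data with known changes. Of genes changed 2-fold it called 24%, 56.5%, 25.5%, 26.5% and 35% in pancreas, kidney, ovary, heart and small intestine. Of genes changed 4-fold it called from 49.5% in the pancreas to 81% in the kidney, so real changes can be missed.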

Additional observations from a re-analysis of the deposited data

Results flagged for a closer look

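Among the 180 groups of 5 FMTg libraries (36 members in 5 tissues), 24 (13.3%) held a library whose gap to its nearest neighbour exceeded 0.71 of the whole range of the group, the 95% critical value of Dixon's test. Chance gives about 1 in 20 such groups, and libraries are shared between members. Of the values reported, these were set apart in that way. Cmpk2 in the pancreas had FMTg replicate 4 lowest, with a gap of 0.788 of the range. Eif2ak2 in the ovary had FMTg replicate 5 highest (0.831). In the heart FMTg replicate 2 was highest for Gbp3 (0.791), for Oasl2 (0.746) and for the mean of the 36 members (0.725). No member had its FMTg libraries all above the Tg libraries in one tissue and all below in another.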

How the results depend on the processing

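In the kidney, ovary, heart and small intestine 0 members were called in each alternative run. In the pancreas the count of members called was 1 with library weights, 1 without the low-numbered mice, 2 in 1 model for all libraries, and 0 to 1 over the fits that left out 1 library (1 without FMTg replicate 4). The mean difference over 5 tissues called 1 member without the low-numbered mice. The mean difference of Parp14 reversed, to 0.06 without the low-numbered mice and 0.04 among mice with an ovary library, against -0.26. The cause was not tested, and fewer samples enter both fits. Leaving out 1 library gave medians of -0.44 to 0.02 in the pancreas and 0.12 to 0.36 in the heart. Over all alternatives the ovary median ran from -0.12 to 0.17, so its sign is not fixed. The medians of the heart and small intestine stayed above 0. The kidney median stayed below 0, but it was -0.01 without the low-numbered mice, among mice with an ovary library and with a replicate block. In each of these kidney fits 18 members were higher and 18 lower. Same-numbered libraries of FMTg and Tg mice came from different mice, and the main fits did not pair them. Their deviations correlated at -0.59 to 0.59, which with 3 Tg libraries a tissue cannot show whether equal numbers share a batch. With a replicate block 0 members were called in each tissue and the pancreas median was 0.11. For levels, 35 members passed without Tg replicate 3. Read numbers cover counting error only, and genes with few reads, such as Oas3 in the kidney and Isg15, limit what these depths can show.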
